A study of Homo sapiens with 6 samples.

Results

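The genes described here are cytokines for which Hodgkin lymphoma cells are known: the interleukins IL5, IL6, IL9, IL10, IL13, IL15 and IL32, the colony-stimulating factor CSF2, and the tumour necrosis factor (TNF) family ligands TNF and LTA. The 10 genes were listed by name, and every probe set that the platform annotation gives to exactly 1 of them was taken. This yielded 9 of the 54675 probe sets of the array, covering 8 of the 10 genes. CSF2 and IL9 had no probe set named for them in the annotation used here and were not analysed here. IL15 was read by 2 probe sets and the other 7 genes by 1 each.

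All samples came from L428, an established human cell line of classical Hodgkin lymphoma. The cells were electroporated (nucleofection) with a locked nucleic acid (LNA), a chemically modified oligonucleotide, that was either an inhibitor of the microRNA miR-9 or a scrambled control. Total RNA was taken 9 h later from both groups and read on Affymetrix HG-U133 Plus 2.0 arrays, 3 per group. Every group is therefore 1 cell line, and no array of untransfected cells was analysed here. The labels number the arrays 1 to 3 in each group and do not say whether a number stands for a separate culture, so p-values measure only the spread between these samples.

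Classical Hodgkin tumours hold few malignant cells among many T cells, eosinophils, plasma cells and macrophages, and the malignant cells recruit and shape that infiltrate with secreted cytokines. IL5 and CSF2 act on eosinophils and myeloid cells, and IL13 acts back on the Hodgkin cells through STAT6. TNF and LTA signal to the NF-kB transcription factors, which are active in these cells. Many cytokine mRNAs are short-lived because AU-rich elements recruit decay factors, whereas HuR (ELAVL1), named in the series title, stabilizes such mRNAs.

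The inhibitor is shown by the microRNA that it is directed against, because the comparison rests on it. The labels name miR-9 without an arm, so both mature arms from RefSeq (GRCh38.p14) are given 5′ to 3′, with the seed (bases 2 to 8) in capitals. The 5p arm is the one usually meant by miR-9, and 3 loci encode each arm.
hsa-miR-9-5p: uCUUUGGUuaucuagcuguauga
hsa-miR-9-3p: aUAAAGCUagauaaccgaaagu

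Among the cytokines, IL13, IL32 and TNF were each higher in both replicate 3 arrays than in all of the other 4, and IL6 was not. The promoters of these genes are shown for that reason. LTA and IL5 shared the pattern, but no LTA window is printed and IL5 had none. Over the other 4 arrays IL32 and TNF did not move alike, as scrambled replicate 2 was the highest for IL32 and the lowest for TNF. The 250 bases before a RefSeq transcription start (GRCh38.p14) are printed 5′ to 3′ on the gene's strand. IL13 and IL32 have 2 listed starts each. The second was printed for IL13 and the first for IL32 because those windows hold a motif, and the windows not printed hold none of the motifs searched. Capitals mark matches to the motifs searched on both strands, which were the TATA box (TATAAA), the AP-1 site (TGANTCA), the binding letters of GATA factors (AGATAA), the STAT site (TTCNNNGAA) and the NF-kB consensus.
IL13 (chr5:132657923-132658172, + strand): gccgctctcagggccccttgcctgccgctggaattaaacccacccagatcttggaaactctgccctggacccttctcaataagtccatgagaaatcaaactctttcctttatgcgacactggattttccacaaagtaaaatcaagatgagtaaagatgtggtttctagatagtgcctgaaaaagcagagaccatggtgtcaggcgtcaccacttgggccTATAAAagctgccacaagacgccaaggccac
TNF (chr6:31575315-31575564, + strand): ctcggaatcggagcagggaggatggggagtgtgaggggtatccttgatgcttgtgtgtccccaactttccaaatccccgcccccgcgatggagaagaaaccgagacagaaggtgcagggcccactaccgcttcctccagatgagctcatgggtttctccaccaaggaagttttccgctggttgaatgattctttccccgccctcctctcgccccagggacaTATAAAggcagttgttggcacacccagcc
IL32 (chr16:3065153-3065402, + strand): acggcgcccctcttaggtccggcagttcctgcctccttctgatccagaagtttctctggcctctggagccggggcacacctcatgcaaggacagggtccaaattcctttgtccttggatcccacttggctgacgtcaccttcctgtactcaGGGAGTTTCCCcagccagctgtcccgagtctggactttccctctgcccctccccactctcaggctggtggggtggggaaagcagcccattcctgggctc
IL6 (chr7:22726950-22727199, + strand): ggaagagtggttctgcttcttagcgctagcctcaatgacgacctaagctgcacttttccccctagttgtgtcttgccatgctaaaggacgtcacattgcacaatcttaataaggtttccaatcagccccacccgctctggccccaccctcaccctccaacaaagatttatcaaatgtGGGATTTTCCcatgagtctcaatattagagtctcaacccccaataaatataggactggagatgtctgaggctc

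TATAAA began 31 bases before the start of IL13 and 29 before that of TNF, and 10.7% of all 35114 RefSeq windows of this length hold it. The IL13 and IL32 windows were chosen because they hold a motif, so the shares given here are no background for their matches. They are a background for TNF and IL6, which have 1 window each. The NF-kB consensus began 73 bases before the start of IL6 and 99 before that of IL32, where a second match on the other strand is shifted by 1 base and the capitals mark both, and 9.96% of windows hold it. LTA has 2 listed starts with overlapping windows (not printed). The first had 2 STAT matches (TTCNNNGAA, held by 6.57% of windows) that began 151 and 12 bases upstream. The second had TATAAA 31 bases upstream, 2 overlapping NF-kB matches that began 104 and 103 bases upstream, and a STAT match 202 bases upstream. AP-1 (6.57% of windows) and GATA (9.17%) matched none of the 4 printed windows. A match is a string of letters and not a measured binding site. LTA and TNF are neighbours on chromosome 6 with no protein-coding gene between them in the RefSeq table, and IL5 and IL13 lie on chromosome 5 with RAD50 between them.

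The deposited values are log2 expression after RMA, a method that corrects background, normalizes arrays and summarizes the probes of a probe set. A level depends on the probes of its probe set, so levels were compared between arrays and not between genes. Array medians lay between 7.10 and 7.15, and the lowest value near 6 on every array (5.97 to 6.08), so differences of dim probe sets may be compressed. Scrambled replicate 1 stood apart. Its 90th percentile was 9.28 against 9.45 to 9.57 on the other 5 arrays, and dap, a bacterial control transcript added to each sample, was at 10.19 there against 8.06 to 8.67. Bright probe sets read higher with the miR-9 LNA as a whole. In 5 equal bins of rising mean level, the median log2 difference was -0.03, -0.0050, 0.06, 0.14 and 0.19. Passing the level needed for testing does not show expression, since 8 of 15 genes of far tissues passed it, and their range was 6.52 (GCG) to 7.51 (MBP). Of 11 markers of Hodgkin lines all passed, from CCL22 at 7.31, inside that range, to GATA3 at 12.81, with the CD30 gene TNFRSF8 at 10.51. Of the markers on the array, 5 of 8 for B cell identity, 7 of 11 for T and natural killer cells, 6 of 8 for myeloid cells, 4 of 5 for mast cells and eosinophils and 3 of 7 for fibroblasts and endothelium lay below it. The highest were EBF1 (7.63), CD4 (7.43), CSF1R (7.21), TPSAB1 (7.37) and COL1A1 (8.16). In such bulk samples fewer cells with an mRNA and less of it per cell cannot be told apart.

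No cytokine probe set was called changed between the miR-9 LNA and the scrambled LNA, and neither was any other probe set. A probe set was tested if its mean over the 6 arrays reached 7.11, the median of all 54613 non-control probe sets. This kept 8 of the 9 cytokine probe sets, of 7 genes, and left out IL10. Of the 8 tested, 0 passed a limma adjusted p under 0.05 and 0 had an unadjusted p under 0.05. Over all 27307 tested probe sets 0% passed, and at an unadjusted p under 0.05 limma gave 13.8% higher and 0.626% lower. The median log2 difference of the 8 was 0.04 (miR-9 LNA minus scrambled LNA), against 0.06 over all tested probe sets, with 5 higher and 3 lower where 66.9% of all tested probe sets were higher.

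IL13 and IL5 belong to the type 2 cytokines, which drive allergic and eosinophil responses. IL13 (207844_at) was at 8.23, 8.21 and 9.19 in miR-9 LNA replicates 1, 2 and 3, and at 8.32, 8.26 and 9.24 in scrambled replicates 1, 2 and 3. The groups overlapped, and the 2 arrays numbered 3 stood far above the other 4. The log2 difference of IL13 was -0.06 ± 0.34 (SE, n = 3 per group, limma adjusted p = 0.938), with a 95% interval from 0.556-fold to 1.65-fold. Within the same-numbered pairs IL13 differed by -0.09, -0.05 and -0.05, lower with the inhibitor in 3 of 3 pairs, a pattern that 10.0% of all tested probe sets shared. The median difference in the level bin of IL13 was 0.14, and after quantile normalization IL13 differed by -0.16.

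IL5 (207952_at), the growth factor of eosinophils, was at 7.65, 7.73 and 7.84 with the miR-9 LNA and at 7.60, 7.80 and 7.88 with the scrambled LNA. The groups overlapped, with the replicate 3 arrays again highest and the replicate 1 arrays lowest. The IL5 levels lay just above the range of the far-tissue genes (up to 7.51 for MBP), and the fibroblast marker COL1A1 was higher at 8.16. Expression of IL5 is therefore not shown by these levels. IL5 differed by -0.02 ± 0.09 (SE, n = 3 per group, limma adjusted p = 0.927), with an interval from 0.851-fold to 1.14-fold. The median difference in the level bin of IL5 was 0.06. After quantile normalization IL5 differed by -0.05, and without scrambled replicate 1 by -0.10 (limma adjusted p = 0.599). That last fit drops the lowest control array and keeps the lowest inhibitor array, which has the same number, so it is not read as a larger decrease.

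IL6, a cytokine of B cell and plasma cell growth that signals through STAT3, was the only cytokine whose groups did not overlap. IL6 (205207_at) was at 9.25, 9.18 and 9.31 with the miR-9 LNA and at 9.01, 9.16 and 9.15 with the scrambled LNA. The lowest inhibitor array lay just above the highest control array, and scrambled replicate 1 was the lowest of the 6. The difference was 0.14 ± 0.07 (SE, n = 3 per group, limma adjusted p = 0.394), or 1.10-fold with an interval from 0.984-fold to 1.23-fold. The two-sided exact permutation p for IL6 was 0.1, and with 3 arrays on each side no smaller one can be reached. Of all tested probe sets 18.1% did not overlap in this direction and 3.97% in the other. The median difference in the level bin of IL6 was also 0.14, and after quantile normalization between arrays IL6 differed by -0.0070 and its groups overlapped, where 5.97% of all tested probe sets did not overlap in the higher and 5.73% in the lower direction. Without scrambled replicate 1 the IL6 difference was 0.09.

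IL10, an anti-inflammatory interleukin, was read near the bottom of the scale. IL10 (207433_at) was at 6.59, 6.64 and 6.48 with the miR-9 LNA and at 6.43, 6.57 and 6.56 with the scrambled LNA. These levels overlapped and fell below the filter, so IL10 entered no adjusted test. In a limma fit without the filter it differed by 0.05 ± 0.06 (SE, n = 3 per group, limma unadjusted p = 0.468). As a guide to such low readings, 15 genes of far tissues such as the glucagon gene GCG had brightest probe sets at 6.52 to 7.51.

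IL15, a growth factor of T cells and natural killer cells, was read by 2 probe sets of unlike brightness. At 205992_s_at IL15 was at 8.89, 8.59 and 8.64 with the miR-9 LNA and at 8.66, 8.50 and 8.56 with the scrambled LNA. Here the replicate 1 arrays were the highest of their groups, and the groups overlapped. The difference was 0.14 ± 0.09 (SE, n = 3 per group, limma adjusted p = 0.498), an interval from 0.948-fold to 1.28-fold. Without miR-9 LNA replicate 1 the IL15 difference was 0.05. At 217371_s_at IL15 lay between 7.44 and 7.53 on all 6 arrays and differed by 0.03 ± 0.06 (SE, n = 3 per group, limma adjusted p = 0.788). That level is within the range of the far-tissue genes, so nothing is read from 217371_s_at. At 205992_s_at IL15 was higher with the inhibitor in 3 of 3 same-numbered pairs, as were 40.2% of all tested probe sets. After quantile normalization the IL15 differences were 0.02 and 0.03.

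IL32, a proinflammatory cytokine that induces TNF in other cells, read lower on average with the inhibitor by less than its spread. IL32 (203828_s_at) was at 9.45, 9.49 and 10.36 with the miR-9 LNA and at 9.57, 9.72 and 10.44 with the scrambled LNA. The replicate 3 arrays were the highest in both groups, and the groups overlapped. The difference was -0.14 ± 0.30 (SE, n = 3 per group, limma adjusted p = 0.835), with an interval from 0.561-fold to 1.47-fold. Within the same-numbered pairs IL32 differed by -0.11, -0.23 and -0.08, where probe sets of its level bin had a median difference of 0.19. After quantile normalization IL32 differed by -0.30 (limma adjusted p = 0.901). Without scrambled replicate 1 IL32 differed by -0.31 (limma adjusted p = 0.709). There the high replicate 3 array weighs more in the control mean than in the inhibitor mean, so -0.31 is not read as a larger decrease. With quantile normalization and the replicate block together, IL32 and IL13 were the 2 cytokine probe sets with an unadjusted limma p under 0.05, both lower, as were 4.19% of all tested probe sets, with 6.46% higher. Without scrambled replicate 3 it differed by 0.12, and without miR-9 LNA replicate 1 by 0.01.

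TNF, the prototype ligand of its family and an activator of NF-kB, followed the same-numbered pairs closely. TNF (207113_s_at) was at 9.07, 8.96 and 9.46 with the miR-9 LNA and at 8.92, 8.81 and 9.31 with the scrambled LNA. Each inhibitor array lay slightly above the control array of its number, as for 40.2% of all tested probe sets, while the groups as a whole overlapped. The difference was 0.15 ± 0.16 (SE, n = 3 per group, limma adjusted p = 0.683), with an interval from 0.847-fold to 1.44-fold. Within the pairs TNF differed by 0.15, 0.14 and 0.14. With replicate number as a block the SE was 0.05 and limma gave an unadjusted p of 0.0359 and an adjusted p of 0.196, where 21.8% of all tested probe sets had an unadjusted p under 0.05 in this direction and 0 passed. TNF was the only cytokine probe set with an unadjusted p under 0.05 in that fit. The median difference in its level bin was 0.14, and after quantile normalization TNF differed by 0.0072.

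LTA (lymphotoxin alpha), which shares the receptors of TNF, had no common sign over the pairs. LTA (206975_at) was at 9.29, 9.28 and 9.66 with the miR-9 LNA and at 9.40, 9.07 and 9.62 with the scrambled LNA. Both replicate 3 arrays were highest, and scrambled replicate 2 was lowest. LTA differed by 0.05 ± 0.16 (SE, n = 3 per group, limma adjusted p = 0.902), with an interval from 0.799-fold to 1.33-fold. The pairs differed by -0.11, 0.21 and 0.04, and after quantile normalization the LTA difference was -0.11.

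IL13, IL32, TNF, LTA and IL5 varied far more between replicate numbers than between treatments, and IL6 varied more between treatments. These 5 genes were each higher in both replicate 3 arrays than in all of the other 4, and IL6 and IL15 were not. These 5 of 8 tested probe sets compare with 12.9% of all tested probe sets. The pattern was noticed after the values were seen and is given as a description with no test. The replicate 3 arrays exceeded the mean of the other 4 by a log2 of 0.96 for IL13 (1.95-fold), 0.84 for IL32 (1.79-fold), 0.44 for TNF (1.36-fold), 0.38 for LTA (1.30-fold) and 0.17 for IL5 (1.12-fold). The same quantity was 0.08 for IL6, and -0.06 and 0.03 for the 2 IL15 probe sets. It was alike in the 2 groups taken alone: 0.97 and 0.95 for IL13, 0.88 and 0.80 for IL32, 0.44 and 0.45 for TNF, and 0.37 and 0.38 for LTA (miR-9 LNA first).

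Over all 27307 tested probe sets the middle of this replicate 3 difference was 0.02 and its 95th and 99th percentiles were 0.29 and 0.48. Only 12 tested probe sets exceeded IL13, 31 exceeded IL32, 366 exceeded TNF and 628 exceeded LTA. IL5 was not extreme by this measure, as 3825 tested probe sets (14.0%) exceeded it. Of the sum of squares over the 6 arrays, replicate number held 99.5% for IL13, 96.4% for IL32, 93.0% for IL5, 89.6% for TNF and 88.0% for LTA, against 18.5% for IL6, 61.5% and 51.0% for the 2 IL15 probe sets and a median of 40.2% over all tested probe sets. Treatment held 0.502% for IL13, 56.6% for IL6, and 31.0% and 25.8% for IL15, against a median of 24.7% over all tested probe sets. After quantile normalization the replicate 3 difference was 0.90 for IL13, 0.78 for IL32, 0.38 for TNF and 0.31 for LTA. The 3′-minus-5′ difference of the ACTB control probe sets, a sign of RNA integrity, was lowest on the replicate 3 arrays (0.22 and 0.24) and lay between 0.36 and 0.87 on the others. That of GAPDH was -0.0034 and -0.05 on the replicate 3 arrays and -0.01 to 0.19 on the others, so it did not set them apart. The part of RNA integrity in the result was not tested.

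With both replicate 3 arrays left out, a choice made after the data were seen, the differences between treatments were -0.07 for IL13, -0.17 for IL32, 0.15 for TNF, 0.05 for LTA and 0.13 for IL6. IL5 moved from -0.02 to -0.0096 and IL10 from 0.05 to 0.12, each by over 1.5 times, and the 2 IL15 probe sets were at 0.16 and 0.05. Of the cytokine probe sets 0 passed limma's adjusted threshold and 0 had an unadjusted p under 0.05 in those 4 arrays, where 10.3% of all tested probe sets were higher and 0.396% lower at that unadjusted p. With all 6 arrays and replicate number as a block, the SE of IL13 fell from 0.34 to 0.05 and that of IL32 from 0.30 to 0.06, while the blocked limma adjusted p was 0.510 for IL13 and 0.231 for IL32. The blocked 95% intervals of the log2 difference ran from -0.20 to 0.07 for IL13, from -0.29 to 0.0052 for IL32 and from 0.01 to 0.28 for TNF.

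Genes whose levels followed IL13 and IL32 most closely over the 6 arrays were sought among 22447 tested probe sets with 1 gene name. HSFX3 (r = 0.994), CLIC5 (r = 0.994) and CCNG2 (r = 0.993) were most like IL13, and CLIC5 (r = 0.997), MEST (r = 0.995) and LMNA (r = 0.992) most like IL32. CCNG2 encodes a cyclin and LMNA a protein of the nuclear lamina. CCNG2 was at 7.42 and 7.51 on the replicate 3 arrays and at 6.99 to 7.01 on the other 4, below the 7.11 needed for testing. CLIC5 (7.44 to 7.75) and MEST (7.39 to 7.95) lay partly within the range of the far-tissue genes. Expression of these 3 genes is therefore not shown by their levels. HSFX3 was at 7.54 to 8.48 and LMNA at 10.74 to 11.51. The r values describe 6 arrays that share 2 high ones. Over the other 4 arrays the r with IL13 was -0.484 for HSFX3, 0.584 for CLIC5 and 0.376 for CCNG2, and the r with IL32 was 0.986 for CLIC5, 0.976 for MEST and 0.891 for LMNA.

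The genes around these cytokines were read from lists, using the brightest tested probe set of each gene. In no list did a gene pass a limma adjusted p under 0.05, as 0 of 12367 tested genes did. At an unadjusted p under 0.05, limma gave 17.4% of these genes higher and 0.598% lower, and 70.0% of genes had a difference above 0 with a median of 0.08. With replicate number as a block these shares were 25.9% and 0.784%, and after quantile normalization 49.6% of genes were above 0. These values are the background for each list, but they cover genes of all levels. The median difference rose with level, to 0.19 in the brightest bin, which began at 9.48. On average over their genes, the AU-rich regulators (9.99 to 10.34 per array) and the transcription factors (9.74 to 9.99) lay in that bin. The block moved the counts at an unadjusted p under 0.05 to 4 higher of 12 receptors, 7 of 23 transcription factors (with 1 lower), 7 of 14 AU-rich regulators, 5 of 16 response genes, 1 of 8 TNF ligands and 1 of 5 processing genes, and to 1 lower of 15 other interleukins, with 0 past the limma adjusted threshold. The number of tested genes that read higher in the replicate 3 arrays was 13 of 16 response genes, 17 of 23 transcription factors, 9 of 12 receptors, 10 of 14 AU-rich regulators, 4 of 8 other TNF ligands, 1 of 5 processing genes and 3 of 15 other interleukins and colony factors, against 52.1% of all 12367 tested genes.

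Of 18 receptor genes for the 10 cytokines, 12 were tested, with 2 higher and 0 lower at an unadjusted p under 0.05, and a median difference of 0.10. IL5RA, the specific chain of the IL5 receptor, was at 10.05, 9.83 and 9.97 with the miR-9 LNA and at 9.62, 9.63 and 9.82 with the scrambled LNA. Its groups were separated by a narrow gap, where 18.1% of all tested probe sets did not overlap in this direction. IL5RA differed by 0.26 ± 0.08 (SE, n = 3 per group, limma adjusted p = 0.296). IL13RA1, a chain of the IL13 receptor, differed by 0.31 ± 0.13 and IL15RA by 0.16 ± 0.09 (limma adjusted p = 0.342 and 0.437). After quantile normalization the IL5RA, IL13RA1 and IL15RA differences were 0.09, 0.14 and 0.02.

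Of 16 other TNF family ligands, 8 were tested, with 1 higher and 0 lower at an unadjusted p under 0.05 and a median difference of 0.02. TNFSF10 (TRAIL), a ligand of death receptors, was at 10.79, 10.78 and 11.09 with the miR-9 LNA and at 10.44, 10.40 and 10.65 with the scrambled LNA. No control array reached an inhibitor array, as for 18.1% of all tested probe sets. TNFSF10 differed by 0.39 ± 0.11 (SE, n = 3 per group, limma adjusted p = 0.296), or 0.20 after quantile normalization. TNFSF13B (BAFF), a survival factor of B cells, differed by 0.17 ± 0.08 and LTB, the membrane partner of LTA, by -0.06 ± 0.06 (limma adjusted p = 0.361 and 0.646).

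Of 43 other interleukins and colony factors, 41 were on the array and 15 were tested, of which 1 was higher and 14 lower, with a median difference of -0.07 and 0 at an unadjusted p under 0.05. Of 8 tested genes of far tissues, a guide to unexpressed genes, 1 was also higher and 7 lower, with a median of -0.04. Most of the 15 were dim, and their summed level divided by their number was 7.70 to 7.71 on the inhibitor arrays and 7.74 to 7.81 on the control arrays. CSF3 differed by -0.16 ± 0.08, IL11 by -0.11 ± 0.06 and the interleukin 1 antagonist IL1RN by -0.15 ± 0.09 (limma adjusted p = 0.372, 0.412 and 0.441). The bright members CSF1, a macrophage growth factor, and EBI3, a subunit of IL27, were picked after their values were seen. CSF1 differed by -0.0051 ± 0.07 and EBI3 by -0.03 ± 0.10 (limma adjusted p = 0.977 and 0.903).

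Of 14 tested regulators of AU-rich cytokine mRNAs, 13 were higher and 1 lower, with 3 higher and 0 lower at an unadjusted p under 0.05. Their median difference was 0.22, where probe sets of the brightest level bin had a median of 0.19. RC3H1 (roquin), a repressor of TNF and other cytokine mRNAs, differed by 0.21 ± 0.06, and the translational repressors TIAL1 and TIA1 by 0.22 ± 0.09 and 0.29 ± 0.12 (limma adjusted p = 0.296, 0.320 and 0.328). After quantile normalization their differences were 0.07, 0.03 and 0.13, and 12 of the 14 were higher with a list median of 0.05. Of 23 tested transcription factors of cytokine genes, 17 were higher and 6 lower, with 3 higher and 0 lower at an unadjusted p under 0.05 and a median of 0.10. NFKB1, a subunit of NF-kB, differed by 0.28 ± 0.07, its relative REL by 0.25 ± 0.07 and NFIL3 by 0.28 ± 0.12 (limma adjusted p = 0.296, 0.296 and 0.347). After quantile normalization 6 of these 23 factors were higher, with a median of -0.03.

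Of 5 tested genes for processing and shedding, ADAM10, a membrane sheddase, differed by 0.30 ± 0.08, RHBDF1 by -0.12 ± 0.06 and FURIN by -0.11 ± 0.07 (limma adjusted p = 0.296, 0.369 and 0.477). ADAM17, the protease that releases TNF from the membrane, was picked after its value was seen and differed by 0.07 ± 0.07 (limma adjusted p = 0.643). Of 16 tested response genes of the cytokines' signalling, 14 were higher and 2 lower, with 0 at an unadjusted p under 0.05 and a median of 0.11. MYC differed by 0.22 ± 0.11, the adhesion gene ICAM1 by 0.25 ± 0.13 and the NF-kB inhibitor NFKBIA by 0.23 ± 0.13 (limma adjusted p = 0.398, 0.405 and 0.444). After quantile normalization 8 of the 16 were higher and their median was -0.0026.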

How the data were processed

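Total RNA of 6 L428 samples was hybridized to Affymetrix HG-U133 Plus 2.0 arrays, and the authors deposited their log2 values. The submitters' processing notes name affy and RMA. Versions, options and any offset are not given in the sources used here. Scanner files were not used here, so no background correction was repeated and the number of arrays limits the precision.

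The 62 control probe sets were left out. Probe sets with a mean at or above the median (7.11) were tested by lmFit and eBayes of limma 3.58.1 under R 4.3.3 (two-sided, miR-9 LNA minus scrambled LNA, all 6 arrays), with Benjamini-Hochberg adjustment over 27307 probe sets and a threshold of 0.05. IL10 was read from a fit without the filter. Genes were named from the platform annotation: 41091 probe sets had 1 symbol, 1801 several and 11721 none. Of those with 1, 41037 were found by Entrez ID among RefSeq's GRCh38.p14 genes, and 0 symbols differed. RefSeq promoter windows matched 6 of the 8 genes with a probe set, and IL5 and IL15 had none. The rule for names took every cytokine probe set, the 3 genes of smallest p of each list, and the 3 genes most like each of the 2 cytokines of largest range. The cytokines and lists were chosen with earlier results of these data known.

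Deviations from the group means correlated at r = 0.231, 0.193 and 0.634 between same-numbered arrays and at -0.429 to 0.168 between others. Deviations cancel within a group, so a high r for number 3 lowers its r with the other numbers. Between numbers 1 and 2 r was 0.168 and 0.077, so a shared deviation is clear for number 3 only. Replicate number was fitted as a block in an alternative. Other alternatives covered normalization, filter, variance model, array weights, a 3'-minus-5' covariate and leaving out arrays. The fit was tested on simulated data with independent noise in each array. Those data held neither the shared replicate deviations nor the level trend seen here, so the fit was not checked under them.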

Additional observations from a re-analysis of the deposited data

How the results depend on the processing

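No cytokine probe set and no other probe set passed limma's adjusted threshold in any of the 17 alternatives, and the lowest adjusted p of a cytokine was 0.196, for TNF with the replicate block. The count of cytokine probe sets at an unadjusted p under 0.05 was 0, but 1 with the replicate block (TNF) and 2 with the replicate block and quantile normalization together (IL13 at -0.16 and IL32 at -0.30, limma unadjusted p = 0.0252 and 0.00191), where 6.46% of all tested probe sets were higher and 4.19% lower at that threshold. The adjusted calls were 0 with and without the block. After quantile normalization and after cyclic loess 0 cytokine probe sets kept non-overlapping groups in the higher direction.

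Several differences turned sign. IL6 was at -0.0070 after quantile normalization, with and without the block, and at -0.016 after cyclic loess. LTA was at -0.11 after quantile normalization, with and without the block, and at -0.12 after cyclic loess. TNF was at -0.0026 after cyclic loess. IL5 was at 0.0067 after median centring and 0.0074 with the 3'-minus-5' covariate, where IL13 was at 0.025. Leaving out each array in turn, the differences ranged from -0.10 to 0.041 (IL5), -0.39 to 0.25 (IL13), -0.44 to 0.12 (IL32), -0.00093 to 0.29 (TNF) and -0.10 to 0.17 (LTA). The highest of each of these came without scrambled replicate 3, and the lowest of IL13, IL32 and TNF without miR-9 LNA replicate 3. IL6 stayed between 0.09 and 0.17. The cause of these turns was not tested. Background correction and scan date could not be varied here, and levels near 6 limit what can be read of IL10.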

Other observations

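Other genes stood out in the replicate 3 arrays of both groups, and they were picked for their values. The largest gap to the other 4 arrays among probe sets with 1 gene name was that of BNIP3L, a mitochondrial autophagy receptor, at a log2 of 1.51 (2.85-fold), with levels of 10.00 and 10.10 on the replicate 3 arrays and 8.28 to 8.78 on the others. SPAG4 (1.17), DDIT4 (1.14), SCD (1.11), EGR1 (1.10) and CYP1B1 (1.08) followed. BNIP3L and DDIT4 are known hypoxia and stress response genes, SCD makes monounsaturated fatty acids and EGR1 is an immediate early transcription factor. In the lower direction HNRNPD, which encodes the AU-rich element binding protein AUF1, fell the most by this measure, at -0.78 for 209330_s_at (10.31 and 10.22 on the replicate 3 arrays against 10.79 to 11.23). At its brightest probe set HNRNPD was at -0.57. Replicate 3 gaps above 0.5 were found for 237 tested probe sets and below -0.5 for 24. For replicate 1 these counts were 6 and 262, and for replicate 2 they were 5 and 21.

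Genes around the cytokines with a large replicate 3 difference were also picked for their values. They were the IL10 receptor chain IL10RA (0.59), the TNF family ligands TNFSF14 (0.53) and CD70 (0.45), the PD-1 ligand gene CD274 (0.53) and IL6ST (0.44), the shared receptor chain of the IL6 family. The list medians were 0.13 for receptors, 0.02 for other TNF ligands and 0.18 for response genes. CD70 and IL6ST lay below the 99th percentile of all tested probe sets (0.48). CD70 was at 10.57 and 10.65 on the replicate 3 arrays and at 10.04 to 10.25 on the others.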
